A study of Mus musculus with 24 samples.

Results

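The gene expression of wild-type (WT) lymphoid-primed multipotent progenitors (LMPP) was compared with that of WT megakaryocyte and erythroid progenitors (MEP) across all genes measured on mouse Affymetrix arrays. The members are the 3 arrays titled WT LSK GFPhi and the 3 titled WT LK GFPneg, 6 of the 24 arrays in the study, chosen by their titles alone. The other 18 arrays hold WT stem cells (LSK GFPneg-lo, labelled HSC), WT granulocyte and monocyte progenitors (LK GFPhi, labelled GMP) and the same 4 populations from mice without Ikaros (knockout, KO). LSK stands, in the field's usage, for bone marrow cells without lineage markers that carry Sca-1 and Kit, and LK for those sorted on Kit. The cells were further sorted by GFP. The GFP transgene (line B-p-GFP-C, C57BL/6 x C3H) is driven by Ikaros regulatory sequence, so the LMPP gate was GFP-high and the MEP gate GFP-negative. All WT groups carry this transgene, with no other allele and no treatment named. The Ikaros-null line is I74, described on a different strain background (C57BL/6 x 129SV). The KO titles name the same GFP gates. How far the KO mice share the background of the reporter line is not stated in the sources used here. Ages are not given in the sources used here. By their titles the 3 arrays of a group are biological replicates. Whether an array stands for a single mouse or pooled mice is not stated in the sources used here, and the p-values measure the spread among these arrays.

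LMPP sit near the start of lymphopoiesis. They keep the ability to make granulocytes and monocytes while they begin to transcribe lymphoid genes, and they make few red cells or platelets. MEP give rise to red cells and platelets. Their erythroid branch runs under the transcription factors GATA1, TAL1 and KLF1, which activate the genes for red cell membrane proteins, iron uptake, heme synthesis and, later, globin. GATA1 and PU.1, encoded by Spi1, are known to oppose each other when a progenitor chooses between the erythroid and the myeloid or lymphoid fates.

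Values are log2 signals as deposited, 1 probe set per gene, for 18193 genes. A difference of 1 is a factor of 2. Each difference is LMPP minus MEP with its standard error (SE) from limma (n = 3 per group). The SE takes its spread from all 8 groups of the fit, so a gene that varies within another group has a wider SE. Calls are genes with a Benjamini-Hochberg adjusted p under 0.05, adjusted over all genes. Across genes, which are not independent replicates, arrays of 1 WT group correlated at r = 0.984 to 0.994 and arrays of the LMPP and MEP groups at 0.913 to 0.942. The number of arrays limits the precision. In sorted bulk samples fewer cells of a type and less RNA per cell cannot be told apart.

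Cd34 and Flt3, markers that set LMPP apart from MEP, were higher in the group labelled LMPP. Cd34, a surface protein of early progenitors that MEP lack, read 12.76, 11.90 and 12.41 on the LMPP arrays and 7.05, 6.17 and 7.49 on the MEP arrays, 43.8-fold higher in LMPP (adjusted p = 2.08e-09). Flt3, the cytokine receptor that defines LMPP among LSK cells, read 12.31, 12.18 and 12.23 against 7.43, 7.65 and 7.54, a difference of 4.70 (SE 0.29). The groups lay far apart for both genes. Kit, part of both gates, was present on all 6 arrays, at 12.02, 10.86 and 11.87 in LMPP and 12.59, 12.31 and 12.90 in MEP. Its difference of -1.02 (SE 0.38) was at the threshold (adjusted p = 0.0492) and lost the call when LMPP replicate 2 or any 1 MEP array was left out. The other probe set of Kit differed by -0.056. Ikzf1, which encodes Ikaros, read 11.72, 11.41 and 11.59 in the GFP-high LMPP and 11.81, 11.73 and 11.99 in the GFP-negative MEP, a difference of -0.27 (SE 0.36, adjusted p = 0.652). Ly6a, which encodes Sca-1, was not analysed here.

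LMPP and MEP differed at a large share of the genes measured. Of 18193 genes, 5288 were called (29.1%), with 2549 higher in LMPP (14%) and 2739 higher in MEP (15.1%). At 4-fold or more, 388 genes were higher in LMPP and 219 in MEP, and at 16-fold or more 61 and 31. All 3 LMPP arrays lay above all 3 MEP arrays for 3817 genes (21.0%) and below them for 3624 (19.9%). The balance between directions moved under median centring. Centring each array on its median moved the median difference of all genes by -0.166, from 0.0436 to -0.1224. It gave 1859 genes higher in LMPP against 4329 higher in MEP. LMPP-higher genes then made up 30.0% of the calls, where they made up 48.2% as deposited. A further quantile normalization gave 2430 higher in LMPP and 2711 higher in MEP, with 47.3% of the calls LMPP-higher.

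**Figure D1:**
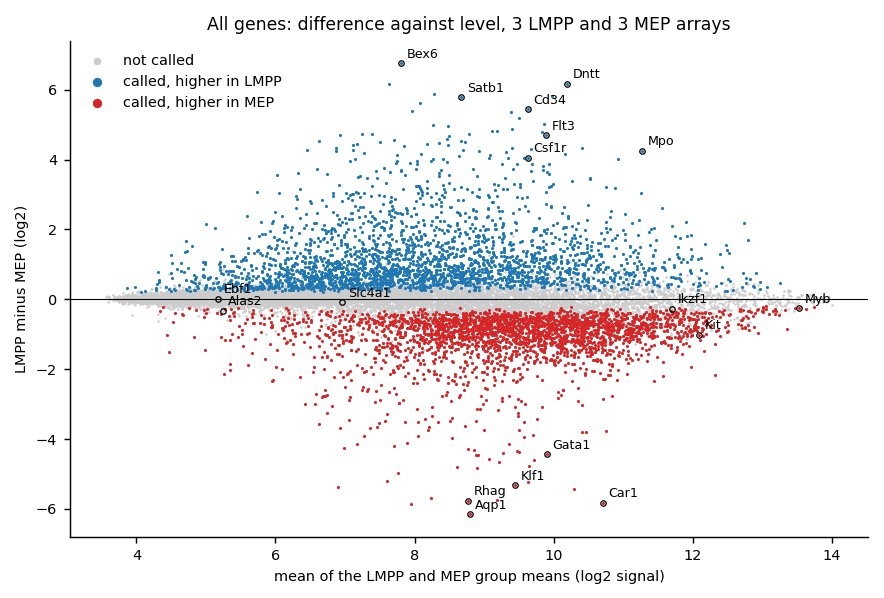
Each dot is 1 of 18193 genes, with the mean of the LMPP and MEP group means on the x axis (log2 signal) and LMPP minus MEP on the y axis (log2), blue and red for genes called higher in LMPP and MEP and grey for genes with no call. Bex6 (6.76) and Dntt (6.18) sit at the top, Aqp1 (-6.15) and Car1 (-5.82) at the bottom, and Ebf1, Slc4a1 and Ikzf1 lie near 0.

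The largest LMPP-higher difference was at Bex6, a member of the brain-expressed X-linked gene family that in the mouse lies on chromosome 16 (32179800 to 32186944, GRCm38.p6). Bex6 read 11.08, 11.20 and 11.29 in LMPP and 4.43, 4.28 and 4.58 in MEP, a 108-fold difference (adjusted p = 1.27e-17). After it came Dntt (6.18), Sting1 (6.15), the cytosolic DNA sensing adaptor, Alcam (5.89), a cell adhesion molecule, Ighm (5.83), the IgM heavy chain, and Satb1 (5.78), a chromatin organiser. Gpr171 (5.61), a G protein-coupled receptor, Vldlr (5.38), a lipoprotein receptor, and Emb (5.37), the transporter partner embigin, followed. Bex6, Sting1 and Gpr171 were also high in HSC (9.24, 9.67 and 9.59) and in GMP (11.42, 10.36 and 10.44), so their difference set MEP apart from the other WT populations by value.

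At the other end stood genes of the red cell surface and of its transport. Aqp1, the water channel of the red cell (chromosome 6, 55336299 to 55348555), read 5.89, 5.49 and 5.79 in LMPP and 11.83, 11.86 and 11.92 in MEP, 70.9-fold higher in MEP (adjusted p = 6.66e-11). Mfsd2b (-5.86), the sphingosine-1-phosphate exporter of red cells, and Sphk1 (-4.81), a kinase that makes sphingosine-1-phosphate, were both among the 15 largest MEP-higher differences. Aldh1a1 (-5.69) and Aldh1a7 (-4.96), aldehyde dehydrogenases, and Slc38a5 (-5.76), a glutamine transporter, were there too, with the arrays apart in each case. Among the largest differences some rested on 1 probe set of several. Nxpe2 differed by -5.20 by the probe set used and by -0.09 by its other one, and Trib2 by -4.78 against -0.27 and -0.22. The other probe set of Sphk1 differed by -0.88, that of Ell2 (-4.84) by -0.0034, that of Myh10 (-5.23) by -0.84, and, on the LMPP side, those of Kbtbd11 (4.83) by 0.01 to 0.34. Of the 3137 called genes with another probe set, 831 had one of the opposite sign. Genes described below for which another probe set showed under 0.3 in size include Csf2rb (0.29), Nbeal2 (0.25), Itgal (0.28), Hoxa10 (0.05), Ikzf2 (0.12 and 0.26), Ikzf5 (-0.22), Stat5a (-0.17), Rb1 (-0.28), Uros (-0.10), Sdc1 (0.06), Tcf4 (0.08), Syk (0.02), Gmps (0.18), Cenpa (-0.13) and Ighm (-0.07).

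Lists of genes with known roles, 36 with the sort gate, described the contrast further. The share called in each direction is read against 14% and 15.1% of all genes, and no list was tested as a set.

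**Figure D2:**
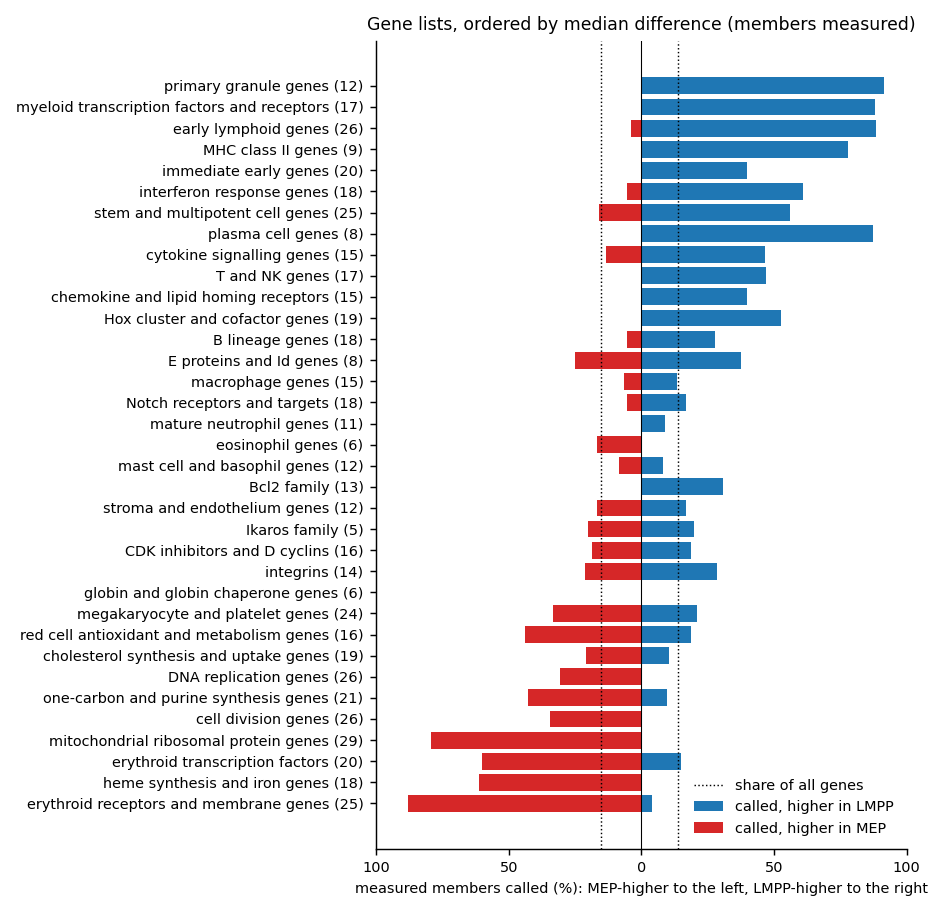
Bars give the percentage of measured members of each gene list called higher in LMPP (blue, to the right) or in MEP (red, to the left), lists ordered by their median difference, with the number measured in brackets and dotted lines at 14% and 15.1%, the shares of all genes. Granule, myeloid, early lymphoid and MHC class II genes lie at the LMPP end and erythroid, heme and mitochondrial ribosomal genes at the MEP end.

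Early lymphoid genes were called higher in LMPP in 23 of 26 measured, with a median difference of 1.87 against 0.0436 over all genes. Dntt, the terminal transferase that adds bases at antigen receptor joints (chromosome 19, 41029275 to 41059525), read 13.25, 13.44 and 13.15 in LMPP and 7.15, 7.18 and 6.98 in MEP, 72.4-fold higher (adjusted p = 4.50e-09). That fold is from a probe set ending in _x_at, and the gene's 2 other probe sets differed by less, 3.27 and 4.93. Satb1 (chromosome 17, 51736187 to 51833290) read 11.83, 11.38 and 11.48 against 5.65, 5.62 and 6.07. Neither gene had overlapping arrays. Il7r, the receptor that drives lymphoid growth, was at 8.20, 9.39 and 8.90 in LMPP and 6.98, 6.799 and 6.70 in MEP, a difference of 1.999 (SE 0.26). Notch1, the receptor that directs T cell fate, differed by 3.71 (SE 0.28) and Mef2c, a factor of lymphoid priming, by 1.74 (SE 0.19), the latter not called with the probe set of largest spread. Rag1, the recombinase, was called at low signal, with 4.93, 4.99 and 5.15 against 4.25, 4.07 and 4.14 (difference 0.87, adjusted p = 8.30e-06). Among the members with no call, Vpreb1 (0.34) and Igll1 (0.22), the surrogate light chain of pre-B cells, stayed near 0. Cnr2, a cannabinoid receptor of B cells, went the other way, at 5.80, 6.16 and 5.94 in LMPP and 9.12, 8.89 and 9.73 in MEP. With the dimmest 40% of genes left out, 15 of the list were called higher in LMPP, since fewer of its genes were then tested.

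In the B lineage list 5 of 18 were higher in LMPP and 1 in MEP. Ebf1 and Pax5, the factors that commit cells to the B lineage, read 5.04 to 5.33 and 6.35 to 6.60 on the LMPP arrays and 5.02 to 5.32 and 6.32 to 6.39 on the MEP arrays, differences of 0.01 (SE 0.11) and 0.12 (SE 0.13). The 5 that were called were Irf8 (3.17), a myeloid and lymphoid factor, Cd79b (2.84), a B cell receptor chain, Cd72 (2.47), Syk (1.68) and Irf4 (0.53). Syk lost its call with the probe set of largest spread. Cd79b read 8.55, 8.55 and 8.46 against 5.64, 5.79 and 5.61, while its partner Cd79a differed by -0.01 (SE 0.14). In the T and NK list 8 of 17 were higher in LMPP, led by Id2 (2.25, SE 0.47), an inhibitor of E proteins. That count fell to 2 without LMPP replicate 2 or MEP replicate 2, to 4 without LMPP replicate 3, to 3 without MEP replicate 3 and to 3, with 1 higher in MEP, after median centring. Cd3e, a T cell receptor chain, differed by 0.04 (SE 0.11).

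E proteins, the helix-loop-helix partners that open lymphoid genes, were split between the populations. Tcf3, which encodes E2A, was higher in MEP, at 8.81, 9.26 and 9.13 in LMPP and 10.02, 10.44 and 10.12 in MEP (-1.12, SE 0.17, adjusted p = 4.35e-05). Tcf12, another E protein, was also called higher in MEP (-0.54). It lost its call without MEP replicate 3 and with the probe set of largest spread (-0.10). Tcf4, which encodes E2-2, was higher in LMPP (1.48, SE 0.23). Lyl1, a TAL1 relative and not an E protein, was higher in LMPP too (1.56, SE 0.27). Within the Ikaros family, Ikzf2, which encodes Helios, was higher in LMPP, at 11.58, 11.34 and 11.54 against 10.29, 10.33 and 10.13, and Ikzf5 was higher in MEP (-0.94, SE 0.20). Of 18 Notch receptors and targets, 3 were higher in LMPP and 1 in MEP. Beside Notch1, the called members were Dtx4 (1.13), Hes5 (0.82) and Nrarp, a Notch-induced inhibitor of the pathway, which was lower in LMPP (-0.76, SE 0.17). Hes5 lost its call without LMPP replicate 2 and differed by 0.18 by its other probe set, and Nrarp by -0.11 by its own. Hes1, a direct Notch target, did not pass the test (-0.37, SE 0.15). Hes1 was called with replicate number as a block (adjusted p = 0.0369), which gave Notch counts of 3 and 2, and array weights gave 6 and 2.

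MHC class II genes, which present peptides to T cells, were higher in LMPP in 7 of 9 measured, with a median of 1.64. H2-Aa, an alpha chain, read 10.96, 10.77 and 10.59 in LMPP and 6.31, 6.30 and 5.91 in MEP, 24.2-fold higher (adjusted p = 2.74e-07). H2-Ob (3.804), H2-DMa (2.14) and H2-Ab1 (1.82) followed, the last losing its call when probe sets ending in _x_at and _s_at were left out. H2-Aa was as high in HSC (11.03, SD 0.36) and GMP (10.62, SD 0.42), so MEP alone of the WT populations read low. Ciita, the transactivator of these genes, read 6.22, 5.90 and 6.18 against 5.81, 5.80 and 5.89 and was not called (adjusted p = 0.0661, or 0.0467 with replicate number as a block).

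Of 17 myeloid transcription factors and receptors, 15 were higher in LMPP, with a median of 1.99. Spi1, which encodes PU.1, was at 8.53, 8.95 and 8.65 in LMPP and 6.60, 6.96 and 6.25 in MEP (2.11, SE 0.24), and Cebpa, the granulocyte and monocyte factor, at 9.67, 9.88 and 10.00 against 7.199, 7.21 and 7.22. No array overlapped for either. Csf1r, the receptor for macrophage growth factor, differed by 4.06 (SE 0.24), Csf2rb, the shared beta chain of the IL-3 and GM-CSF receptors, by 4.01 (SE 0.25), and Gfi1, a repressor of neutrophil and lymphoid development, by 3.74 (SE 0.30). Fcgr3, an Fc receptor that marks GMP, was low in both groups (6.23, 6.29 and 6.32 against 6.31, 5.75 and 6.04) and read 8.08 (SD 1.32) in GMP.

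Primary granule genes, the first granule proteins that myeloid cells make, were higher in LMPP in 11 of 12. Mpo, the myeloperoxidase (chromosome 11, 87793784 to 87804412), read 13.43, 13.42 and 13.37 in LMPP and 9.47, 8.13 and 9.83 in MEP, 19.2-fold higher (adjusted p = 2.39e-09). Ctsg, cathepsin G, differed by 4.78 (SE 0.29) and Prtn3, proteinase 3, by 4.34 (SE 0.27). The MEP arrays varied more than the LMPP arrays for these 3 genes, with MEP replicate 2 lowest for Mpo and Ctsg. Ms4a3 (1.27, adjusted p = 0.0574) was the member with no call, and it was called with replicate number as a block (adjusted p = 0.0192). Genes of mature neutrophils did not follow: 1 of 11, Pglyrp1 (1.24, SE 0.26), was higher in LMPP, or 2 with replicate number as a block, and S100a8 and S100a9, the calprotectin genes, read 4.68 to 5.78 on all 6 arrays.

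**Figure D3:**
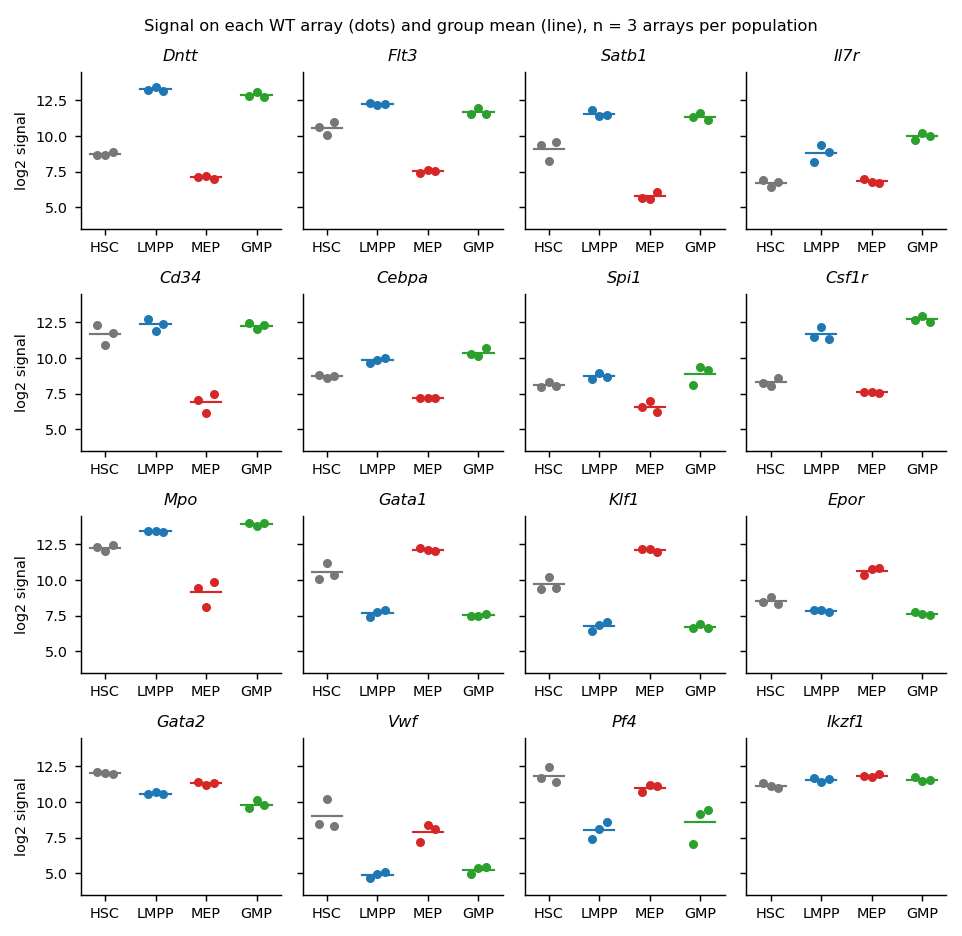
Each panel gives the log2 signal of 1 gene on the 3 arrays of each WT population (dots) and their mean (line). Dntt, Flt3, Satb1, Cebpa and Csf1r are high in LMPP and low in MEP, Gata1, Klf1 and Epor the reverse, and HSC lie between them for Gata1 and Klf1.

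Stem and multipotent cell genes were divided. Of 25 measured, 14 were higher in LMPP and 4 in MEP. Mecom, a stem cell zinc finger factor, read 9.63, 9.28 and 10.10 in LMPP against 6.42, 6.45 and 6.41 in MEP (3.24, SE 0.25), though its other probe sets differed by 0.02 and 0.07. Meis1, the Hox cofactor, differed by 2.40 (SE 0.30) and Procr, a stem cell surface receptor, by 2.58 (SE 0.27). The 4 higher in MEP were Vwf (-3.01), the platelet adhesion protein also known in platelet-biased stem cells, Mllt3 (-2.23), Slamf1 (-1.58), the surface receptor CD150, and Gata2 (-0.72). Slamf1, whose other probe sets differed by -0.19 and 0.13, read 7.52, 7.14 and 7.002 in LMPP and 8.79, 8.83 and 8.78 in MEP, with 9.58 (SD 0.45) in HSC. Gata2 lost its call after a further quantile normalization. All 4 of these genes, and Gata1 too, had an HSC mean above the LMPP mean. For Hox genes and cofactors 10 of 19 were higher in LMPP and 0 in MEP. Hoxa9 was at 12.40, 12.22 and 12.47 against 9.93, 9.99 and 10.36 (4.82-fold), followed by Hoxa10 (1.14) and Hoxa7 (0.94). After median centring or a further quantile normalization 8 remained called higher in LMPP and 1 was called higher in MEP.

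Erythroid transcription factors were higher in MEP in 12 of 20, with a median of -0.93. Klf1, which activates globin and membrane genes (chromosome 8, 84901982 to 84905291), read 6.45, 6.82 and 7.08 in LMPP and 12.15, 12.16 and 11.998 in MEP, 39.9-fold higher in MEP (adjusted p = 7.55e-10). Gata1 (chromosome X, 7959260 to 7976663) was at 7.396, 7.80 and 7.88 against 12.22, 12.13 and 12.01 (-4.43, SE 0.45). The arrays did not come near each other for either gene. Nfia, a factor that favours the erythroid over the granulocyte fate, differed by -3.34 (SE 0.12, other probe sets from -2.89 to -0.02), Gfi1b by -2.61 (SE 0.28) and Tal1 by -1.47 (SE 0.20). Lmo2, the bridging protein of the TAL1 complex, was not called (-0.40, SE 0.24). The 3 members higher in LMPP were Hes6 (1.08), Foxo3 (0.62) and Nfe2 (0.36). Nfe2 was at 11.10, 10.83 and 11.09 against 10.64, 10.72 and 10.59, and its adjusted p was 0.0461, or 0.0514 with replicate number as a block. Hes6 lost its call with _x_at and _s_at probe sets left out, Foxo3 lost it without MEP replicate 3, and only 1 of the 3 stayed called without that array. Myb, needed by both lineages, was close to equal, at 13.44, 13.43 and 13.33 against 13.68, 13.63 and 13.65 (-0.26, SE 0.09, adjusted p = 0.0315).

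The promoters of called genes were searched for short motifs of factors that themselves differed between the populations. The 250 bases before the annotated start were taken from RefSeq (GRCm38.p6) for the 14452 of 18193 genes that matched by symbol, using the first start that table lists, which was not the gene's outermost start for 6253 of the 14367 with gene coordinates, so some stretches lie inside genes or away from the start in use. They were searched on both strands for GATAA, the core that GATA factors bind, CCNCNCCC, which contains the core of KLF1 sites, and GAGGAAG, an ETS motif of the kind PU.1 binds. Matches of each motif were sought separately and may overlap. Printed 5′ to 3′ on the gene's strand are Klf1 and Epor, MEP-higher genes that hold GATAA, and Mpo and Dntt, LMPP-higher genes, all with a stretch that ends at the outermost annotated start. Capitals mark the 3 motifs on either strand.
Klf1, chr8:84901732-84901981, plus strand: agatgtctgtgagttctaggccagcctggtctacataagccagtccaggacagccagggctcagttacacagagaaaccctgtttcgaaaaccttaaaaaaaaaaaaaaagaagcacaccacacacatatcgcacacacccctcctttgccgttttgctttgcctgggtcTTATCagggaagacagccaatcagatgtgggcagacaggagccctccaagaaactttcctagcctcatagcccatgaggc
Epor, chr9:21963577-21963826, minus strand: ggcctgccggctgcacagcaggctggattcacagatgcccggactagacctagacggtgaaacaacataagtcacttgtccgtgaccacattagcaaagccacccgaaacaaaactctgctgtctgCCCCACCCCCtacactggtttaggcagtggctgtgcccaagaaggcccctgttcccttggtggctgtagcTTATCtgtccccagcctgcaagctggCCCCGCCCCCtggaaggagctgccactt
Mpo, chr11:87793534-87793783, plus strand: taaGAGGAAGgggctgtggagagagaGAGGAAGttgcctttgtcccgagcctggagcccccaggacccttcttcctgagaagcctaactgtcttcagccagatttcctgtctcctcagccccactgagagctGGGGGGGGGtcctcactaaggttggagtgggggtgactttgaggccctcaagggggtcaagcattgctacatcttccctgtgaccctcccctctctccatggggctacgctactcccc
Dntt, chr19:41029025-41029274, plus strand: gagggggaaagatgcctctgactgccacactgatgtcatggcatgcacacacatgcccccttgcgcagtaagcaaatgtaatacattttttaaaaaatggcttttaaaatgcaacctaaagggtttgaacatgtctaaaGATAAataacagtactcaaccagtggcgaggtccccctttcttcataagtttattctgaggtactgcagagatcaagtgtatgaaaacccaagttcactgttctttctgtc

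GATAA stood in 17.4% of all 14452 promoters, in 22.3% of the 175 genes called at least 4-fold higher in MEP, and in 17.9% of the 312 called at least 4-fold higher in LMPP. Among the erythroid receptor, membrane and heme lists it stood in 12 of 34 promoters (35.3%), and among the early lymphoid list in 6 of 22 (27.3%). Over all called genes it was less frequent on both sides, at 14.4% for MEP-higher and 15.1% for LMPP-higher genes. GAGGAAG stood in 10.6% of all promoters, in 19.6% of the genes at least 4-fold higher in LMPP and in 12% of those at least 4-fold higher in MEP. CCNCNCCC was present in 59.2% of all promoters and in 64.6% and 64.4% of the 4-fold MEP-higher and LMPP-higher genes. Mpo holds GAGGAAG at 2 places, and Dntt, which was 72.4-fold higher in LMPP, holds GATAA. These shares were not tested, and a match is a description of letters, not of binding.

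Erythroid receptors and membrane genes were higher in MEP in 22 of 25, with a median of -2.33. Epor, the erythropoietin receptor, read 7.87, 7.90 and 7.76 in LMPP and 10.37, 10.79 and 10.85 in MEP, 7.10-fold higher in MEP (adjusted p = 1.46e-11). Tfrc, the transferrin receptor, was at 10.29, 10.40 and 10.74 against 12.69, 12.50 and 12.85. Both genes were apart on every array. Rhag, the Rh-associated ammonium channel, differed by -5.77 (SE 0.42), Ermap, the Scianna blood group protein, by -5.43 (SE 0.36), and Kel, the Kell blood group protein, by -4.31 (SE 0.23). Car1, a red cell carbonic anhydrase, was at 7.32, 7.66 and 8.40 in LMPP and 13.75, 13.38 and 13.73 in MEP. On the LMPP arrays Car1, Rhag, Ermap, Klf1 and Gata1 were all lowest on replicate 1 and highest on replicate 3, with Rhag from 5.15 to 6.51. Slc4a1, the anion exchanger band 3, read 7.03, 6.95 and 6.78 against 7.06, 7.02 and 6.91 (-0.08, SE 0.11, adjusted p = 0.678). Epb42, a membrane skeleton protein, was called higher in LMPP at 0.32 by the probe set used here, and the gene's other probe set gave -0.91 and the opposite call.

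Heme synthesis and iron genes were higher in MEP in 11 of 18 and in LMPP in 0. Ordered along the pathway, Alad differed by -1.73 (SE 0.24), Uros by -1.05 (SE 0.15), Urod by -1.39 (SE 0.20), Cpox by -3.51 (SE 0.28), Ppox by -0.52 (SE 0.21, no call, adjusted p = 0.0729, or 0.0371 with replicate number as a block) and Fech by -1.44 (SE 0.11). Cpox, coproporphyrinogen oxidase, read 7.49, 7.72 and 8.27 in LMPP and 10.73, 11.65 and 11.62 in MEP, 11.4-fold higher in MEP. The first enzyme did not pass the test in either form. Alas2, the erythroid 5-aminolevulinate synthase, was at 4.94, 5.29 and 5.004 against 5.17, 5.48 and 5.56 (-0.32, SE 0.16, adjusted p = 0.141, called after median centring), and Alas1, the form of other tissues, at 8.84, 8.67 and 9.52 against 8.13, 8.44 and 8.77. Carriers of heme intermediates were higher in MEP: Tmem14c, which moves a porphyrin into mitochondria, differed by -2.29 (SE 0.33), and Slc25a38, the glycine carrier, by -1.59 (SE 0.18). Blvrb, a biliverdin reductase of red cells, differed by -4.30 (SE 0.29), and Slc40a1, the iron exporter ferroportin, counted here among macrophage genes, by -4.45 (SE 0.35). The other probe sets of Fech differed by -3.08 to 0.76.

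**Figure D4:**
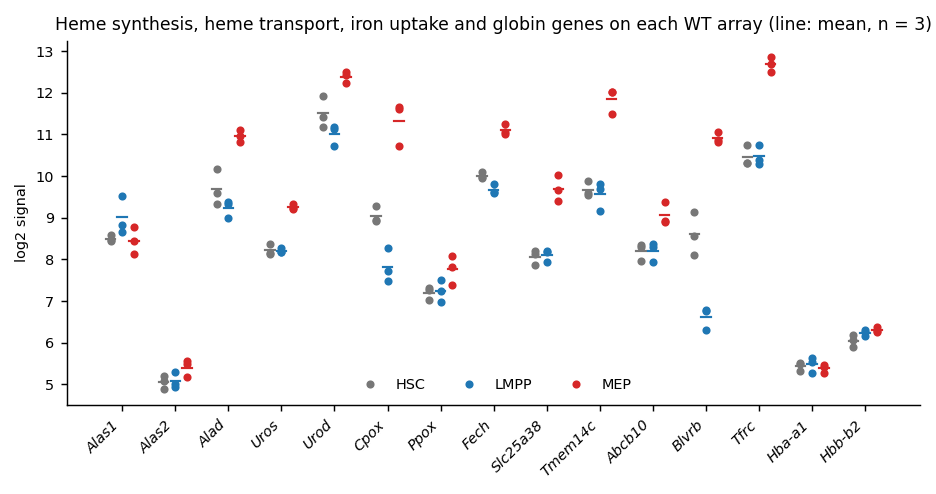
Log2 signal on the 3 arrays of WT HSC, LMPP and MEP (dots) with the group mean (line) for heme synthesis genes in pathway order, then heme and glycine carriers, Blvrb, Tfrc and 2 globins. MEP lie above LMPP for Alad through Cpox and for Fech, and Alas2, Hba-a1 and Hbb-b2 lie near 5 to 6 in every group.

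Globin signal was low in MEP on the probe sets measured. The list held 10 globin and globin chaperone genes, of which Hbb-b1, Hbb-bs, Hbb-bt and Ahsp were not measured. Of 6 globin genes measured 0 were called in either direction, by limma, and 0 also at an unadjusted p under 0.05, with 2 called higher in MEP after median centring and 1 after a further quantile normalization. All 3 MEP arrays lay above all 3 LMPP arrays for 2 of the 6, against 19.9% of all genes. Hba-a1, adult alpha globin, read 5.53, 5.63 and 5.27 in LMPP and 5.47, 5.28 and 5.42 in MEP, and Hbb-b2, adult beta globin, 6.16, 6.29 and 6.26 against 6.28, 6.37 and 6.26. Both sets of arrays overlapped. Since these probe sets were low on all WT arrays, the data hold no sample that shows what they read when globin is present.

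Megakaryocyte and platelet genes split, with 8 of 24 higher in MEP and 5 in LMPP. Pf4, platelet factor 4, read 7.44, 8.14 and 8.63 in LMPP and 10.72, 11.18 and 11.10 in MEP (7.60-fold), and Gp5, a subunit of the platelet von Willebrand receptor, 6.38, 6.29 and 6.50 against 9.04, 8.91 and 9.31 (6.48-fold). Vwf read 4.70, 4.96 and 5.11 against 7.23, 8.41 and 8.14, and Itga2b, the integrin CD41, differed by -1.08 (SE 0.24). Pf4 and Itga2b were higher still in HSC (11.84, SD 0.52, and 10.94, SD 0.28). Gp9 (0.03, SE 0.31) and Gp6 (0.07, SE 0.08), late platelet receptors, were not called. Nbeal2, needed for platelet granules, was higher in LMPP, at 8.77, 9.53 and 9.07 against 5.61, 6.70 and 6.27, as was Fli1 (1.93, SE 0.56), an ETS factor, which lost its call without LMPP replicate 2 or MEP replicate 3. The LMPP-higher count was 3 without LMPP replicate 1, LMPP replicate 2 or MEP replicate 1, and 3 with the mean of a gene's probe sets.

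Mitochondrial ribosomal protein genes were higher in MEP in 23 of 29 and in LMPP in 0, with a median of -0.65. Mrpl20 read 8.54, 7.86 and 8.91 in LMPP and 9.96, 9.97 and 10.08 in MEP (-1.57, SE 0.29), and Mrps22 and Mrps5 differed by -1.45 and -1.38. The count was 14 after a further quantile normalization and 15 without LMPP replicate 2 or MEP replicate 3. Of 21 one-carbon and purine synthesis genes, which supply nucleotides, 9 were higher in MEP and 2 in LMPP. Gmps, the GMP synthetase of purine synthesis, differed by -1.62 (SE 0.40), and Mthfd1, a folate enzyme, read 11.12, 11.45 and 11.68 against 12.84, 12.91 and 12.95. The 2 higher in LMPP were Phgdh (0.85), which starts serine synthesis, and Shmt1 (0.69), and after a further quantile normalization 4 were.

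Cell division genes were higher in MEP in 9 of 26 and in LMPP in 0, with a median of -0.55. Cenpa, the centromeric histone, read 10.54, 10.73 and 10.74 in LMPP and 12.05, 12.11 and 12.09 in MEP, 2.66-fold higher in MEP (adjusted p = 8.19e-07). Mki67, the Ki-67 antigen, was at 12.61, 11.85 and 12.64 against 12.89, 12.70 and 13.11. Its arrays did not overlap, yet it was not called (-0.53, SE 0.26, adjusted p = 0.142). The count rested on few arrays: it was 4 without LMPP replicate 1, 3 without LMPP replicate 2 and 2 without MEP replicate 3. DNA replication genes were higher in MEP in 8 of 26, and in 13 after median centring. Cdc6, which loads the helicase, differed by -1.39 (SE 0.21), while Mcm5 (0.10), Mcm2 (-0.0018) and Mcm6 (0.0009), subunits of that helicase, did not pass the test. In a separate list of 16 CDK inhibitors, cyclins and related genes, 3 were higher in LMPP and 3 in MEP. The other 10 had no call, and the median was 0.04. Among the called members, Ccne1, cyclin E1, was higher in MEP, at 9.39, 10.70 and 10.55 against 11.95, 11.76 and 11.55. Ccnd2, cyclin D2, was higher in LMPP, at 11.70, 11.83 and 11.72 against 10.72, 10.71 and 10.82. Rb1, the retinoblastoma protein, was higher in MEP (-1.43, SE 0.15) and Cdkn1a, the inhibitor p21, higher in LMPP (1.38, SE 0.26). Ccnd2 lost its call with the probe set of largest spread.

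Red cell antioxidant and metabolism genes were higher in MEP in 7 of 16 and in LMPP in 3. Gclm, a subunit of the first enzyme of glutathione synthesis, read 9.82, 9.73 and 10.19 against 12.05, 11.95 and 11.79 (4.05-fold higher in MEP). Hk1, the red cell hexokinase, was higher in MEP (-1.26, SE 0.16) and Hk2 higher in LMPP (1.44, SE 0.19), while Ldhb, the lactate dehydrogenase H subunit, was higher in LMPP (1.98, SE 0.18). With the probe set of largest spread, 11 members were higher in MEP. Of 19 cholesterol genes 4 were higher in MEP, led by Sqle (-1.10, SE 0.23), and 2 in LMPP, led by Hmgcs1 (1.22, SE 0.20). After median centring these counts were 7 and 1, and with the mean of a gene's probe sets 3 and 0.

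Receptor signalling genes differed in both directions. Of 15 cytokine signalling genes 7 were higher in LMPP and 2 in MEP. Socs3, the feedback inhibitor of IL-6-type and G-CSF receptors, read 8.14, 8.53 and 8.75 in LMPP and 4.51, 4.98 and 4.69 in MEP (13.4-fold), and Stat4 differed by 2.67 (SE 0.38). Socs3 lost its call with _x_at and _s_at probe sets left out. The 2 higher in MEP act below the erythropoietin receptor, among other receptors: Stat5a, at 8.74, 8.53 and 8.01 against 10.82, 9.51 and 10.14, and Jak2, at 10.22, 10.41 and 10.35 against 10.996, 10.96 and 10.94. Stat5b, of the same list, was not called (-0.24). Jak2 lost its call after a further quantile normalization. Homing receptors were higher in LMPP in 6 of 15 and in MEP in 0. P2ry14, a UDP-glucose receptor, read 9.67, 8.89 and 9.64 against 4.84, 4.67 and 5.35 (21.8-fold), Ccr2, the monocyte chemokine receptor, 10.40, 10.83 and 10.84 against 6.47, 6.60 and 6.66 (17.3-fold), and Ccr9, a thymus homing receptor, 8.25, 8.89 and 7.89 against 5.59, 5.10 and 5.23. Ccr9 lost its call with _x_at and _s_at probe sets left out. Integrins divided, with 4 of 14 higher in LMPP and 3 in MEP, among them Itgal (2.02, SE 0.22), the alpha chain of LFA-1, in LMPP and Itga4 (-1.25, SE 0.21), the alpha chain of VLA-4, in MEP, the last not called with the probe set of largest spread.

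Among 13 Bcl2 family genes, which set the threshold of cell death, 4 were higher in LMPP and 0 in MEP. Bcl2, the survival protein, read 10.41, 11.06 and 10.53 in LMPP and 7.47, 7.69 and 7.95 in MEP, 7.79-fold higher. Pmaip1, the pro-death member Noxa, was also higher in LMPP (1.47, SE 0.27). Bcl2l1, which encodes Bcl-xL, the survival protein of erythroid cells, was at 8.64, 9.21 and 8.94 against 8.18, 8.64 and 8.48 and was not called (0.49, adjusted p = 0.114), though it was with replicate number as a block (adjusted p = 0.0389). Mcl1 (0.81) and Bmf (1.05) were called by the probe sets used, and other probe sets of both genes did not show the difference. With _x_at and _s_at probe sets left out the counts of this list were 2 and 1, and with the mean of a gene's probe sets 3 and 2.

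Interferon response genes were higher in LMPP in 11 of 18 and in MEP in 1, Isg20 (-0.98). Oasl2, an antiviral oligoadenylate synthetase-like protein, read 8.68, 8.63 and 9.91 in LMPP and 6.03, 6.09 and 6.67 in MEP (2.81, SE 0.37), and Ifit3 6.97, 6.63 and 8.69 against 6.33, 5.96 and 5.80. LMPP replicate 3 was the highest of the 6 arrays for both genes. The mean of the list was 8.74, 8.76 and 9.58 on the LMPP arrays and 7.97, 8.15 and 8.32 on the MEP arrays. Without LMPP replicate 3, 10 members were higher in LMPP and 1 in MEP. Isg20 lost its call without any 1 of the other 5 arrays. Immediate early genes, which respond within minutes to stimulation or handling, were higher in LMPP in 8 of 20 and in MEP in 0. Zfp36, an mRNA decay factor, was at 10.38, 9.70 and 10.05 against 7.33, 6.995 and 7.28 (7.16-fold), and Fos at 13.19, 12.60 and 13.22 against 10.91, 10.73 and 10.75 (adjusted p = 0.0260, lost without any 1 array other than LMPP replicate 2). The mean of this list was 8.74 to 8.87 on the LMPP arrays and 7.59 to 7.75 on the MEP arrays, and the part that cell handling has in it was not tested.

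**Figure D5:**
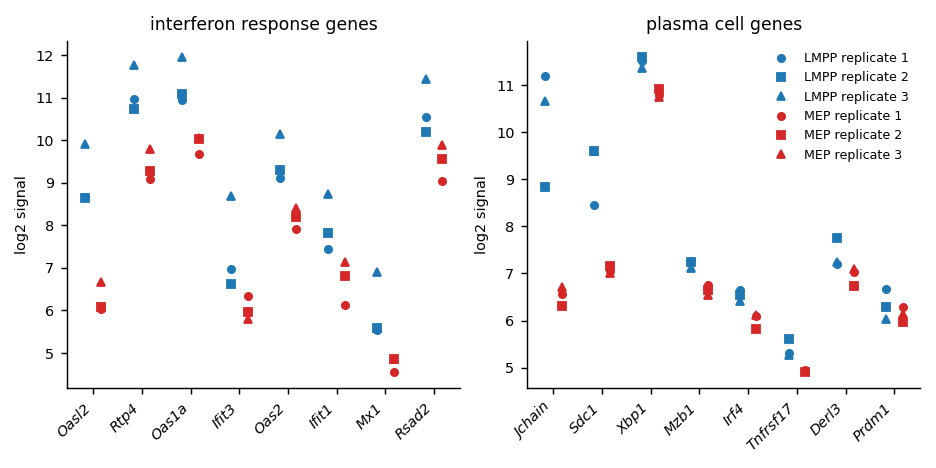
Log2 signal of 8 interferon response genes and the 8 plasma cell genes on each LMPP (blue) and MEP (red) array, with circles, squares and triangles for replicates 1, 2 and 3. The triangle of LMPP replicate 3 is the highest for each interferon gene shown, and Jchain spreads from 8.83 to 11.19 on the LMPP arrays.

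Markers of other cell types were checked for both gates. Plasma cell genes were called higher in LMPP in 7 of 8, with a median of 0.54. With the dimmest 40% of genes left out, 4 of the list were still tested and all 4 were called higher in LMPP. Jchain, the chain that joins secreted antibodies, read 11.19, 8.83 and 10.66 in LMPP and 6.56, 6.31 and 6.71 in MEP (3.70, SE 0.44), so LMPP replicate 2 lay more than 1 log2 unit below the other LMPP arrays. Sdc1, the plasma cell marker CD138, went the other way among those arrays, at 8.44, 9.60 and 9.59. Mzb1 (0.56), an antibody-folding protein, and Irf4 (0.53) differed little, and Prdm1, the defining plasma cell factor, was not called (0.20, SE 0.20). The list's mean was 7.93 to 8.03 on the LMPP arrays and 6.81 to 6.94 on the MEP arrays, and its part in the high Ighm signal was not tested. Macrophage genes were called in 2 of 15 for LMPP, Cd68 (2.20) and Cd14 (1.08), and in 1 for MEP, Slc40a1. The means of this list were 6.13 to 6.22 on the LMPP arrays and 6.12 to 6.19 on the MEP arrays. These means include Slc40a1 (-4.45), which lowers the LMPP means against the MEP means. All 3 LMPP arrays lay above all 3 MEP arrays for 6 members and below them for 1. Over all genes those shares were 21.0% and 19.9%. C1qa, C1qb and C1qc, complement genes of macrophages, had no call. Mast cell, eosinophil and stroma or endothelium genes gave at most 2 calls in a direction, among them Mcpt8 (1.51), a basophil protease, and Pdgfrb, a growth factor receptor of stroma, at 10.54, 11.14 and 10.48 in LMPP and 6.82, 7.38 and 6.72 in MEP. Pdgfrb read 10.20 (SD 0.29) in HSC.

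The other WT populations place these differences. HSC had a mean nearer to LMPP than to MEP for 2087 of the 2549 LMPP-higher genes (81.9%) and for 2378 of the 2739 MEP-higher genes (86.8%). For 979 of the LMPP-higher genes the HSC mean was at or above the LMPP mean, and for 522 of the MEP-higher genes at or below it. GMP were nearer to LMPP for 69.6% and 69.4% of the genes. Several of the factors above did not follow the majority: Gata1 read 10.53 (SD 0.60) in HSC and Klf1 9.70 (SD 0.48), nearer to MEP, and Sox6 read 11.30 (SD 0.29) in HSC, above the MEP mean of 9.24. Dntt was at 8.74 (SD 0.12) in HSC and 12.89 (SD 0.19) in GMP, and Il7r at 6.72 (SD 0.23) and 10.00 (SD 0.25), so by value GMP held more Il7r signal than LMPP. These levels are a description and were not tested.

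The same contrast in KO cells, from arrays that share none with the WT groups, had the WT sign for 2458 of the 2549 LMPP-higher genes and 2681 of the 2739 MEP-higher genes. The difference between the WT and KO contrasts was itself called for 359 genes (1.97%), of which 255 were called in the WT contrast. With replicate number as a block that count was 631, and with array weights 754.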

How the data were processed

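RNA from sorted bone marrow cells was hybridised to 24 Affymetrix arrays, 6 ug of total RNA each, per the labels' protocols. The deposited values are log2 signals made by the authors with RMA, per the submitters' processing notes (version not given in the sources used here). RMA makes array distributions alike, which can hide a shift of most genes. Of 45101 probe sets, 64 were controls, 932 had several gene symbols and 9160 none. The other 34945 gave 18193 genes, each read from its brightest probe set by mean signal, so a gene can rest on 1 of several disagreeing probe sets. Values ran from 3.33 to 14.5.

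Group means of all 8 groups were fitted with limma 3.58.1 in R 4.3.3, with Benjamini-Hochberg adjustment over all genes, and the genotype difference was the interaction in the same fit. In data simulated for this comparison (200 changed among 18193 genes), 40%, 80%, 96% and 100% of changes of 0.5, 1, 2 and 4 log2 units were called. A permutation test of 3 against 3 arrays cannot give a p below 0.1. Replicate numbers come from the titles. Arrays of the same number deviated together from their group means (r = 0.529, 0.568 and 0.528 for replicates 1, 2 and 3). The main fit had no term for this pairing, so SE and p-values are unpaired except where a block is named. An alternative fit took the replicate number as a block and called 6087 genes, where the main fit called 5288.

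The compared groups and the gene lists (612 genes written, 558 measured) were chosen with earlier results of these data known. Named genes are the 15 largest differences each way, up to 4 called members of a list each way, a panel of markers and regulators, and list members with no call. Further called members, such as Kel, Alad, Urod, Uros, Fech and Slc25a38, were named after their values were seen. Alternatives covered the arrays in the fit, pairing, dim and cross-hybridising probe sets, the probe set chosen, variance model, array weights, scaling, fold size and each array left out.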

Additional observations from a re-analysis of the deposited data

Results flagged for a closer look

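Among 578 named genes and list members, 38 (6.57%) had an LMPP minus MEP difference that itself differed between WT and KO cells by limma's interaction test (adjusted p under 0.05 over all genes), against 359 of all 18193 genes (1.97%), a count that was 631 with replicate number as a block and 754 with array weights. The lists were chosen with earlier results known, so the higher share is read as no result. Values in brackets are the WT minus the KO difference, on the log2 scale: 29 lay below 0 and 9 above. The reporter and Ikaros-null lines are described on different strain backgrounds, and how far the KO mice share the reporter background is not stated. Genotype and strain therefore cannot be told apart.

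Genes of vessels, stroma and stem cells were on the lower side: Cdh5 (-4.79), Fgd5 (-3.38), Pdgfrb (-2.64), Tie1 (-2.58), Procr (-2.45), Mycn (-2.05), Pdzk1ip1 (-1.59), Hoxa9 (-1.74) and Esam (-1.20). Cdh5, the endothelial cadherin, differed between LMPP and MEP by 0.02 in WT and 4.81 in KO. Procr, the stem cell receptor, differed by 2.58 in WT and 5.03 in KO. Platelet and integrin genes were there too: Selp (-3.98), Itgb3 (-3.31), Cd9 (-3.28), Itga6 (-2.39) and Gp5 (-1.39). Cd9, a tetraspanin of platelets, changed sign, with -1.33 in WT and 1.95 in KO, as did Itga6 with -0.77 in WT and 1.61 in KO. So did Gata2, the stem cell and mast cell factor (-1.37), with -0.72 in WT and 0.66 in KO.

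Myeloid and mast cell genes on the same side were Mrc1 (-4.11), Lcn2 (-3.64), Cebpd (-2.04), Cd14 (-1.92), Cpa3 (-1.78), Mcpt8 (-1.59), Cd68 (-1.48) and Csf1r (-1.44). Csf1r differed by 4.06 in WT and 5.49 in KO, higher in LMPP in both. Erythroid or transport genes were Slc40a1 (-2.22), Aqp9 (-1.97), Sox6 (-1.76) and Trim10 (-1.09), with Nxpe2 (-1.48) and the death gene Pmaip1 (-2.62) beside them. Slc40a1 differed by -4.45 in WT and -2.24 in KO.

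On the other side were genes of lymphoid and antibody-making cells: Rag2 (0.74), Rag1 (0.83), Cd52 (1.27), Il12a (1.38), Ighm (2.52), Sdc1 (2.91) and Jchain (3.59). Jchain differed by 3.70 in WT and 0.10 in KO, and Rag1 by 0.87 in WT and 0.04 in KO. The remaining members were Itgax (0.78) and E2f2 (1.24), an integrin of dendritic cells and a cell cycle factor.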

How the results depend on the processing

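Relative to 5288 genes called, the count lay between 4840 and 6188 under the alternatives that changed the arrays fitted, pairing, filters, probe sets, variance model, weights or scaling. With a 2-fold minimum it was 2234, with 1129 higher in LMPP and 1105 higher in MEP. Median centring gave 4329 higher in MEP. Leaving out 1 array gave 4106 to 5363 calls, 2090 to 2513 higher in LMPP and 2016 to 2850 higher in MEP. With the replicate number as a block 6087 genes were called, 5280 of them shared with the fit without it, and the count for the genotype difference was 631. Among genes named in the text, the block ended the calls of Nfe2 and Siglecf and made those of Bcl2l1, Ms4a3, Ciita, Ppox, Hes1 and Pdzk1ip1. Array weights gave 754 for the genotype difference, and leaving out 1 array gave 286 to 346. Of the genes chosen by the naming rule, 6 changed sign under an alternative: Epb42 to -0.91 with the probe set of largest spread and -0.29 with the mean of probe sets, Bmf to -0.033 and Mvd to -0.10 with the probe set of largest spread, Mcl1 to -0.062, Mvd to -0.10 and Lss to 0.29 with _x_at and _s_at probe sets left out, and Cdkn1b to -0.081 after median centring. Those of Epb42, Bmf, Mcl1, Mvd and Lss come from other probe sets of the same genes. Calls were lost under at least 1 alternative for 43 of the 187 genes chosen by the naming rule and gained for 2, Alas2 and Bcl2l1. With 3 arrays a group, a gene without a call may still differ. In the simulation 40% of differences of 0.5 log2 units were recovered. It changed 200 genes, where 5288 were called in the data, and drew the noise of each array independently. That share is therefore not the rate of recovery in these data.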
